A study of Mus musculus with 4 samples.

Results

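Meis, Pbx and Tgif proteins are TALE homeobox transcription factors, named for a loop of 3 extra amino acids in the DNA-binding homeodomain. The acetylated form of histone H3 lysine 27 (H3K27ac), which marks promoters and enhancers in use, was examined at 8 of their genes: Meis1, Meis2, Meis3, Pbx2, Pbx3, Pbx4, Tgif1 and Tgif2. They are 8 of 34324 protein-coding and lncRNA genes of the RefSeq table on chromosomes 1 to 19 and X. Peaks of each deposited list were taken when they overlapped the RefSeq body of a gene or the 20 kb on either side of it, here called its window.

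The cells were neural stem cell cultures derived from female E14.5 mouse embryos, profiled by chromatin immunoprecipitation and sequencing (ChIP-seq). The Smchd1-deleted group was 1 H3K27ac library of cells titled del/del, in which a Cre and puromycin-resistance retrovirus (MSCV-Cre-puro) had removed the floxed allele of Smchd1, a chromatin protein needed for X inactivation. Puromycin was added 24 h after transduction and cells were harvested on day 7. The Smchd1-control group was 1 H3K27ac library of untransduced cells, so deletion, transduction and drug selection cannot be told apart. Each group had 1 whole-cell-extract input, and there were no replicates. Both groups derived from Smchd1 del/fl embryos, carried a maternal X of strain 129 with the Xist deltaA allele and a paternal Castaneus X, and have C57BL/6 in the strain field. Groups were taken from the titles, and other fields go against them: the control ChIP is titled fl/fl but has a del/fl genotype, the control input has a del/del genotype, and trimethylated H3K27 is the target named in the antibody field.

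Meis proteins bind DNA alone or as partners of Pbx proteins, and both groups are cofactors of Hox proteins. In the embryonic forebrain, Meis2 is known as a partner of Pax6 and Dlx proteins in the making of olfactory bulb neurons. Tgif proteins read nearly the same DNA core as Meis proteins but repress transcription, and they restrain TGF-beta signalling by binding Smad proteins. In humans, loss of TGIF1 is a known cause of holoprosencephaly, a failure of the forebrain to divide.

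The stretches just upstream of 5 transcript starts show the range of positions that H3K27ac peaks took in deleted cells. Each sequence is the 250 bases that end at the base before a RefSeq start on GRCm38.p6 (the build that mm10 stands for), written 5′ to 3′ on the strand of the gene. Capitals mark bases inside a peak of the deleted list. Meis1 and Meis2 are shown because the whole stretch was inside a peak, Meis3 and Pbx2 because a peak ended before the start, and the Tgif1 stretch because a pair of peaks reached into its ends and it holds a Pbx-Hox motif between them.
Meis1, chr11:19018970-19019219, minus strand: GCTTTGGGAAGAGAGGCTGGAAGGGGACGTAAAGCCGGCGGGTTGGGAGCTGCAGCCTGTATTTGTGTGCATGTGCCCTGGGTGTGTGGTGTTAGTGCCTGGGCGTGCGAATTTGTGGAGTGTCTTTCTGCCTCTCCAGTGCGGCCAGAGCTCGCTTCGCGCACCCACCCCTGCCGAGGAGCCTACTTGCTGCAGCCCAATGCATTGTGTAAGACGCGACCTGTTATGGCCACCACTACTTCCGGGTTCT
Meis2, chr2:116064620-116064869, minus strand: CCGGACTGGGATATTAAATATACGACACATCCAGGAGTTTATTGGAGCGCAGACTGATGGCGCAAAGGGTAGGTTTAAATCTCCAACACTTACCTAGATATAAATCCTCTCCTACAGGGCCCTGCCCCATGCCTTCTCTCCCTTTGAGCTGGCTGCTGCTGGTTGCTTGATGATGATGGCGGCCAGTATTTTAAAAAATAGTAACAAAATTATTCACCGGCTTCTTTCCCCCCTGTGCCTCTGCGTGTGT
Meis3, chr7:16175145-16175394, plus strand: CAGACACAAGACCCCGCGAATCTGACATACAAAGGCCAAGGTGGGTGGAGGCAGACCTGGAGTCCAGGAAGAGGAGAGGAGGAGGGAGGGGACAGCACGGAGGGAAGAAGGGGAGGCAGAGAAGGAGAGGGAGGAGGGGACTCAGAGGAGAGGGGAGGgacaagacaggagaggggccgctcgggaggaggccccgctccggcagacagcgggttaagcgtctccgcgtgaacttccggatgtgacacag
Pbx2, chr17:34592009-34592258, plus strand: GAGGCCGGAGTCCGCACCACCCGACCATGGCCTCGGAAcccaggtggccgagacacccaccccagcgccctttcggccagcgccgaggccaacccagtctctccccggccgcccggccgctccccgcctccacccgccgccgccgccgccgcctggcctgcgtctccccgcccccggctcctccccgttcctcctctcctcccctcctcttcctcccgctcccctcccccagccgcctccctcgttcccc
Tgif1, start at 70849790, chr17:70849791-70850040, minus strand: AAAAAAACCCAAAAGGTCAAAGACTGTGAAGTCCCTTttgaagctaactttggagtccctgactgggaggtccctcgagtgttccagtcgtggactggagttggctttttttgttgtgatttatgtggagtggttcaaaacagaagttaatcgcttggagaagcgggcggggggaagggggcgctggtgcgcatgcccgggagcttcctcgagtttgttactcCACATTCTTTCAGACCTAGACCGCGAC
All 250 bases of the Meis1 and Meis2 stretches were inside peaks in deleted cells, and so were all 250 in control cells. In the Meis3 stretch 158 bases were inside a peak in deleted cells, against all 250 in control cells. The Pbx2 stretch had 38 bases inside a peak in deleted cells, against 0 in control cells, and the Tgif1 stretch had 64 in deleted cells, against 0 in control cells. The stretches also differed in CpG number: Pbx2 had 27 CpG and 77.6% G and C, Meis3 had 12, Meis1 had 13, this Tgif1 start had 11, and Meis2 had 7 CpG and 47.6% G and C. The median of 32619 RefSeq promoter stretches of this length was 6 CpG and 52.4% G and C.

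Both strands of the stretches of 11 listed starts, which belong to 7 of the 8 genes, were searched for 2 motifs. TGACAG, the core that Meis and Tgif proteins bind, was in 0 of 11 stretches and in 15.6% of all RefSeq stretches. TGATNNAT, the composite motif of Pbx and Hox proteins, was in 1 of 11 and in 7.65% of all. That match, written TGATTTAT, began 134 bases before the Tgif1 start at 70849790, in the lower-case part of the sequence between the 2 deleted peaks. It overlapped no match of the other motif, and a match is a run of letters, not a site shown to be bound.

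After filtering, the deleted ChIP library held 54194233 tags and the control ChIP library 42277672 (ratio 1.28). The deposited lists held 91639 peaks of deleted cells and 63698 of control cells. On chromosomes 1 to 19 and X there were 91557 deleted and 63613 control peaks, a ratio of 1.44, and their covered bases had a ratio of 1.48. A deeper library lets weaker peaks pass, so every number of peaks below is read against these ratios. Fold enrichment is the authors' ratio of the ChIP pileup to the background set when that ChIP was called against its input. That background was more than 2% above the lowest value of its list, the floor, at 14.6% of deleted and 16.1% of control peaks. Most fold values of a list thus share nearly the same background. Values of the 2 libraries are not scaled to each other. Fewer cells carrying the mark and less of it per cell cannot be told apart in such bulk samples. Of 12 neural stem cell markers, 11 had a peak within 1 kb of a gene end in both lists, against 1 of 7 neuron, 2 of 4 astrocyte, 0 of 5 oligodendrocyte, 2 of 5 fibroblast, 1 of 5 microglia, 0 of 4 endothelial and 0 of 4 pluripotent markers. The ends of Smchd1 itself had peaks of up to 7.72-fold in deleted cells and 8.88-fold in control cells, which does not check the deletion. Smchd1 and Tgif1 are on the same chromosome, 491 kb apart.

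All 8 genes had H3K27ac peaks in both lists, as did 68.5% of 21627 protein-coding gene windows. Together they had 112 peaks in deleted cells and 85 in control cells (ratio 1.32, exact 95% interval 0.985 to 1.77), below the 1.44 of the whole lists, which lies inside that interval. Their covered bases summed to 62920 in deleted cells and 47945 in control cells (ratio 1.31.) Intervals cover counting error only, since 1 library per group gives no replicate check, and neighbouring peaks are not independent. Genes with at least 1.5 times as many deleted as control peaks were Meis1, Meis3, Pbx3 and Pbx4, 4 of 8, against 40.3% of protein-coding windows with a control peak.

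A peak that overlapped no peak of the other list by at least 1 base is called list-only. Of the 112 deleted peaks, 46 were list-only, or 41.1% (exact interval 31.9 to 50.8), against 50.6% of all deleted peaks and 49.0% of those in protein-coding windows. Among the 85 control peaks 13 were list-only, or 15.3% (8.40 to 24.7), against 24.3% of all control peaks and 23.2% of those in protein-coding windows. List-only peaks were below 5-fold at every gene. Their median was 3.51-fold in the deleted list and 3.43-fold in the control list, and their highest was 4.70-fold in deleted cells, at Pbx3, and 3.96-fold in control cells, at Meis2. Shared peaks had a median of 4.79-fold in the deleted list and 4.64-fold in the control list. Over the whole lists, list-only peaks had medians of 3.19-fold in deleted cells and 3.43-fold in control cells. Shared peaks there had medians of 4.53-fold in deleted cells and 4.44-fold in control cells. None of the 31 deleted and 29 control peaks of at least 5-fold was list-only, against 4.17% of all deleted and 1.28% of all control peaks that strong, so strong peaks were seldom list-only anywhere.

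**Figure D1:**
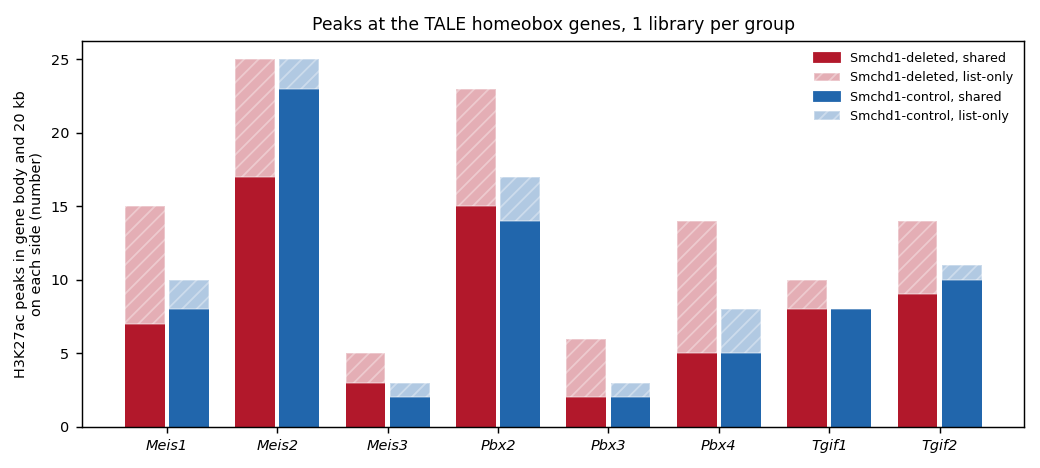
Number of H3K27ac peaks in each gene window (vertical axis, peaks) for the 8 genes, with the Smchd1-deleted bar left of the Smchd1-control bar and 1 library per bar. Full colour is shared peaks and the hatched top is list-only peaks: Meis2 had 25 peaks in each list, and Tgif1 had no list-only control peak.

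The Meis genes had 45 peaks in deleted cells and 38 in control cells (ratio 1.18.) In deleted cells 18 were list-only (40.0%), and in control cells 5 (13.2%). Meis2 and Meis1 had the strongest peaks of the 8 genes in both lists, and Meis3 the weakest.

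Meis2 (chr2:115861264-116067537) had the most peaks, the most covered bases and the highest enrichment of the 8 genes in both lists. Its window is also the longest, 246 kb, and per 100 kb it held 10.2 peaks in each list, against 51.0 in deleted cells and 37.7 in control cells at Pbx2. It had 25 peaks in each list (ratio 1.00), covering 21979 bases in deleted cells and 19045 in control cells. More peaks than at 96.2% of protein-coding genes were found in the deleted list, and than at 98.1% in the control list. The marked bases lay mainly in a run of peaks no more than 1 kb apart around the transcript start. In deleted cells 13 peaks made up a run of 20.03 kb that held 79.7% of the covered bases of the window, and in control cells 18 peaks made up a run of 20.15 kb that held 86.5%. The same stretch was thus split into 13 intervals in one list and 18 in the other. With peaks at most 500 bases apart joined, an alternative chosen after seeing the data, the window held 12 regions in deleted cells and 8 in control cells.

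The strongest Meis2 peak lay inside the gene, 234 bases from the start in the deleted list and 231 bases in the control list. It was 4397 bases wide with a pileup of 96 tags and 16.3-fold enrichment in deleted cells (chr2:116059989-116064385). In control cells it was 4487 bases wide with a pileup of 85 tags and 17.2-fold enrichment (chr2:116059902-116064388). That enrichment was above the highest peak of 99.1% of protein-coding windows in the deleted list and of 99.5% in the control list. The widest deleted peak, of 4473 bases, was another one in the same run, upstream of the start. It lies in the body of the lncRNA gene G630016G05Rik (chr2:116067225-116085911). In the window 5 deleted and 6 control peaks were within 1 kb of an end of G630016G05Rik or of the lncRNA gene 2810405F15Rik. The upstream part of the run therefore cannot be assigned to Meis2 alone. The list-only peaks of Meis2 were 8 in deleted cells, at most 4.03-fold (chr2:115857654-115858445, beyond the end of the gene), and 2 in control cells, at most 3.96-fold (chr2:116020214-116020502, inside it).

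Genes most like Meis2 were sought by the distance between log2(number + 1) of shared and list-only peaks in each list, over the 2 libraries. Meis2 had 17 shared and 8 list-only deleted peaks with 23 shared and 2 list-only control peaks. The lncRNA gene 2900052L18Rik was nearest at a distance of 0.164 (19, 8, 22 and 2 in the same order), then Lsmem2 at 0.197 (18, 7, 22 and 2) and Nlrx1 at 0.223 (19, 9, 24 and 2).

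Meis1, best known as a cofactor of Hox proteins in blood stem cells and leukaemia, lies on chr11:18880428-19019651. Its window had 15 peaks in deleted cells and 10 in control cells (ratio 1.5), covering 7147 bases in deleted cells and 5465 in control cells. The strongest peak covered the listed start and was wide in both lists. In deleted cells it measured 2668 bases with a pileup of 81 and 13.8-fold enrichment (chr11:19017756-19020423). In control cells it measured 2300 bases with a pileup of 60 and 12.3-fold enrichment (chr11:19017717-19020016). The deleted peak also overlapped the next control peak, of 298 bases and 9.48-fold (chr11:19020107-19020404), so the widths depend on where each list was split. An end of the gene Gm16141 lies within 1 kb of the strongest peak in both lists. Its enrichment was above the highest peak of 96.3% of protein-coding windows for deleted cells and of 94.6% for control cells.

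The list-only peaks of Meis1 were weak and mostly far from the start. The gene had 8 list-only peaks in deleted cells, of 2.85- to 4.37-fold, and 2 in control cells, of 3.00- and 3.40-fold. The strongest list-only deleted peak (chr11:18877168-18877413) was next to an end of 8430419K02Rik, and the strongest list-only control peak (chr11:18958511-18958685) was inside Meis1.

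Meis3, studied in hindbrain patterning in frogs and fish, had the lowest highest enrichment and the fewest covered bases in both lists (chr7:16174012-16186510). It had 5 peaks in deleted cells and 3 in control cells, covering 1205 bases in deleted cells and 1054 in control cells. Per 100 kb of window it held 9.52 peaks in deleted cells and 5.71 in control cells. Pbx3 held fewer, 2.49 in deleted cells and 1.25 in control cells. Its highest peak was 4.87-fold in deleted cells (chr7:16175419-16175637) and 4.0-fold in control cells (chr7:16174934-16175622). The highest peak was lower still, or there was none, in 39.7% of protein-coding windows for deleted cells and in 35.6% for control cells. The start at 16175395 lay inside the single 689-base control peak. In the deleted list that stretch was called as 2 peaks, and the start was in the 116 bases between them. List-only peaks numbered 2 in deleted cells, at most 3.67-fold (chr7:16155589-16155902), and 1 in control cells, 3.63-fold (chr7:16204828-16205002), all in the flanks.

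**Figure D2:**
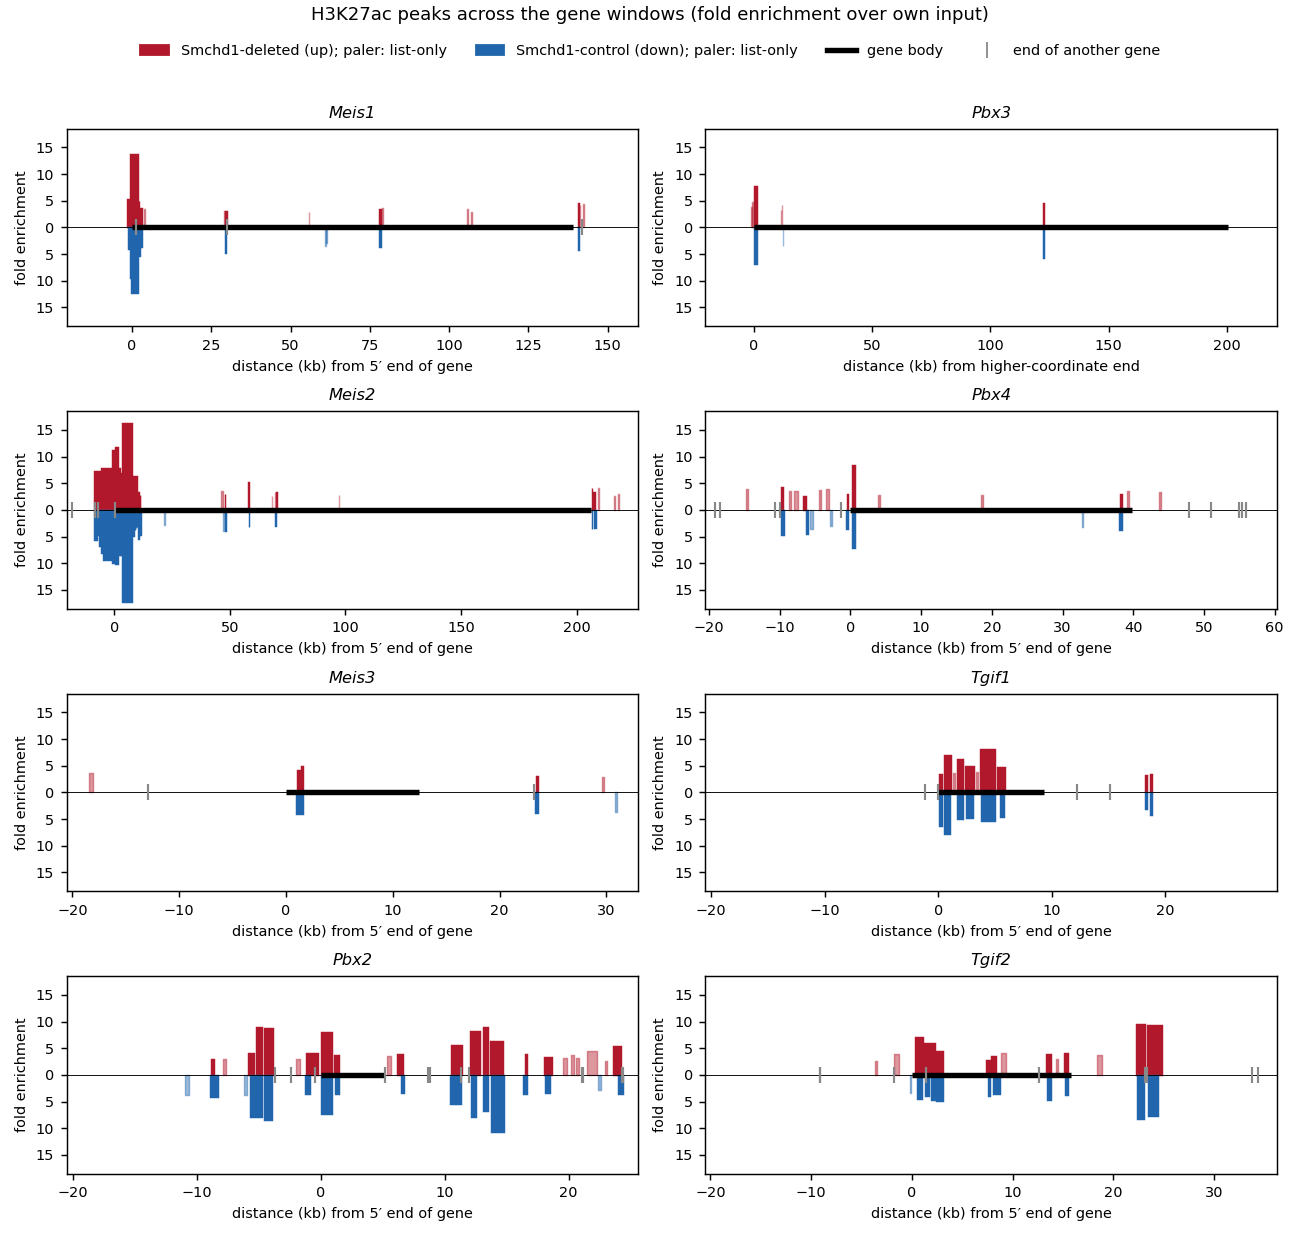
Peaks in each gene window against distance in kb from the 5′ end of the gene, or for Pbx3 from its higher-coordinate end. Bar height is fold enrichment over background, deleted upward and control downward, and paler bars are list-only. The Meis1 and Meis2 runs at the 5′ end reach 13.8- and 16.3-fold in deleted cells and 12.3- and 17.2-fold in control cells.

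The Pbx genes had 43 peaks in deleted cells and 28 in control cells (ratio 1.54, exact interval 0.932 to 2.57), which spans the whole-list ratio. List-only peaks were 21 in deleted cells (48.8%) and 7 in control cells (25.0%), shares near those of all peaks. Pbx2 held most of these peaks, and few of them lay in the gene itself.

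Pbx2, a broadly expressed member, is a gene of 5.14 kb (chr17:34592259-34597400) in the dense class III region of the major histocompatibility complex. Its window had 23 peaks in deleted cells and 17 in control cells, covering 12101 bases in deleted cells and 8761 in control cells. Only 2 peaks of each list overlapped the gene body. Many peaks of the window lay at other genes: 12 deleted and 6 control peaks, 1 of each in the body of Pbx2, were within 1 kb of an end of Notch4, Gpsm3, Ager, Rnf5, Agpat1, Egfl8 or Ppt2. The number of peaks in the window therefore cannot be assigned to Pbx2.

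The peak at the start of Pbx2 began 9 bases after the start in the deleted list and 7 bases after it in the control list. It was 920 bases wide and 8.06-fold in deleted cells, against 870 bases and 7.26-fold in control cells. Stronger peaks lay in the flanks: in deleted cells a pair at 9.07-fold each (chr17:34586991-34587536 and chr17:34605368-34605751), and in control cells 1 at 10.7-fold (chr17:34605984-34607021). None of these 3 was within 1 kb of another gene's end, but the first lies in the body of Notch4 and the others in that of Agpat1. The deleted peak at the place of the strongest control peak had 6.38-fold enrichment. Most of the deleted list-only peaks were at the far end of the window, where a run of 7 peaks held 5 of the 8, among them the strongest at 4.53-fold by Agpat1 and Egfl8 (chr17:34613713-34614555). Control list-only peaks numbered 3, and the strongest were 2 at 3.83-fold each (chr17:34581289-34581617 and chr17:34586041-34586267).

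Pbx3, known for its part in the control of breathing in newborn mice, spans 201 kb (chr2:34171457-34372045) with no other listed gene end in its window. It had 6 peaks in deleted cells and 3 in control cells (ratio 2.0), covering 2244 bases in deleted cells and 1492 in control cells. The strongest peak lay at its higher-coordinate end in both lists. In deleted cells it was 1069 bases wide, 7.72-fold (chr2:34370856-34371924), and in control cells 1039 bases wide, 6.86-fold (chr2:34370913-34371951). A second shared peak, deep inside the gene, was 4.53-fold in deleted cells and 5.65-fold in control cells. The deleted list had 4 list-only peaks, 2 just beyond the strong peak, with the strongest at 4.70-fold (chr2:34372320-34372688), and 2 inside the gene. The control list had 1, of 3.43-fold (chr2:34359565-34359758), close to those inside the gene. With peaks at most 500 bases apart joined, the window had 3 regions in each list (ratio 1.00), so the ratio of 2.0 depends on counting close peaks separately. By definition the 4 list-only deleted peaks overlapped no control peak, which does not tell whether they are parts of a longer marked stretch. With the deleted list shortened to the length of the control list, the ratio stayed at 2.0, where the whole lists have 1.00 by construction. At −log10 q of at least 5, 5 deleted and 2 control peaks remained, but at 5-fold or more 1 deleted and 2 control peaks did. In the gene body alone the ratio was 1.33.

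Pbx4, known chiefly from the testis in mice, lies on chr8:69832476-69872292. It had 14 peaks in deleted cells and 8 in control cells (ratio 1.75), covering 4620 bases in deleted cells and 2870 in control cells. The strongest peak began just after the start, 90 bases from it for deleted cells and 76 for control cells, and was 8.40-fold in deleted cells (chr8:69832714-69833165) and 7.06-fold in control cells (chr8:69832700-69833189). List-only peaks were 9 of 14 in deleted cells and 3 of 8 in control cells, the highest number of any of the 8 genes in deleted cells. All were weak, at most 3.86-fold in deleted cells (chr8:69829023-69829463) and 3.63-fold in control cells (chr8:69826754-69827183). With lists of equal length, the deleted list being shortened to its 63613 most significant peaks, the ratio was 1.13. The whole lists then have a ratio of 1.00 by construction. At −log10 q of at least 5 it was 1.25 at Pbx4, against 1.29 over the whole lists. At 5-fold or more each list had 1 peak at Pbx4. With peaks at most 500 bases apart joined the ratio was 1.86, against 1.42 over the whole lists. Without peaks near ends of other genes, 12 deleted and 6 control peaks remained.

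The Tgif genes had 24 peaks in deleted cells and 19 in control cells (ratio 1.26.) They had the lowest list-only shares of the 3 families, 7 peaks in deleted cells (29.2%) and 1 in control cells (5.26%). Exact intervals of these shares are wide, 12.6 to 51.1% in deleted cells and 0.133 to 26.03% in control cells, and hold the shares of all peaks.

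Tgif1 (chr17:70844205-70853532) has 5 listed starts, each within 1 kb of a peak in both lists. Most peaks lay beside or between the starts. A peak crossed the start at 70851734 in both lists and the start at 70849790 in the deleted list alone. Its window had 10 peaks in deleted cells and 8 in control cells, covering 5101 bases in deleted cells and 3928 in control cells. In deleted cells a run of 8 peaks over 5.82 kb held 91.6% of the covered bases, and in control cells a run of 6 peaks over 5.73 kb held 90.6%. Nearly all bases marked in control cells, 99.1%, were also marked in deleted cells. Of bases marked in deleted cells, 76.3% were also marked in control cells. Over the whole lists these shares were 74.8% of control and 50.4% of deleted bases, so the difference between the lists is not particular to Tgif1. There were 2 list-only deleted peaks, of 3.86-fold (chr17:70850004-70850233) and 3.69-fold, and no list-only control peak. Both lay inside the run, in spaces between peaks of the control list.

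The order of the Tgif1 peaks differed between the lists. In deleted cells the strongest was chr17:70848551-70849817, with a pileup of 48 and 8.23-fold enrichment. At the same place the control list had a pileup of 42 but 5.37-fold enrichment. The local background there was 4.96 in deleted cells, the floor of that list, and 7.00 in control cells, above the control floor of 3.96. The strongest control peak was chr17:70852511-70853020, at 7.87-fold, near an end of Gm36856, and the deleted peak there was 7.05-fold. With peaks at most 500 bases apart joined, Tgif1 had 2 regions in deleted cells and 4 in control cells (ratio 0.5), which turns its direction.

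Tgif2 (chr2:156839817-156855570) had 14 peaks in deleted cells and 11 in control cells, covering 8523 bases in deleted cells and 5330 in control cells. Its strongest peak in both lists was not at its own start but in the downstream flank, near ends of 5430405H02Rik and Rab5if. That peak was 9.57-fold in deleted cells (chr2:156862107-156862925) and 8.27-fold in control cells (chr2:156862184-156862911). The first peak downstream of its own start lay within 1 kb of an end of the protein-coding gene LOC115486128 in both lists. It was 788 bases wide and 7.05-fold in deleted cells, against 473 bases and 4.44-fold in control cells. Another peak of that group had a pileup of 43 in deleted cells and 24 in control cells. Its enrichment was 4.40-fold in deleted cells and 4.98-fold in control cells. The local background was 9.0 in deleted cells, above the floor, and 4.03 in control cells, within 2% of the floor. The strongest list-only peak was 4.20-fold in deleted cells, inside the gene (chr2:156848679-156849124), and 3.43-fold in control cells, just upstream of the start (chr2:156839593-156839773).

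All 11 listed starts had a peak within 1 kb in each list, as did 55.7% of 21044 protein-coding starts in deleted cells and 51.2% in control cells. The start base itself was often not inside a peak. It lay inside a peak for 4 starts in deleted cells and for 4 in control cells, and for 3 in both. Among protein-coding starts within 1 kb of a peak, the start base was inside it for 30.2% with the deleted list and 22.4% with the control list. At Meis1, Meis2 and the Tgif1 start at 70851734 a peak crossed the start in both lists. A Meis3 peak crossed it in the control list and the Tgif1 start at 70849790 was crossed in the deleted list. At Pbx4 the start lay in a space of 518 bases between peaks in deleted cells and 509 bases in control cells. At Pbx2 that space was 221 bases in deleted cells, against 918 in control cells, and at Tgif2 it was 1547 bases in deleted cells and 586 in control cells.

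**Figure D3:**
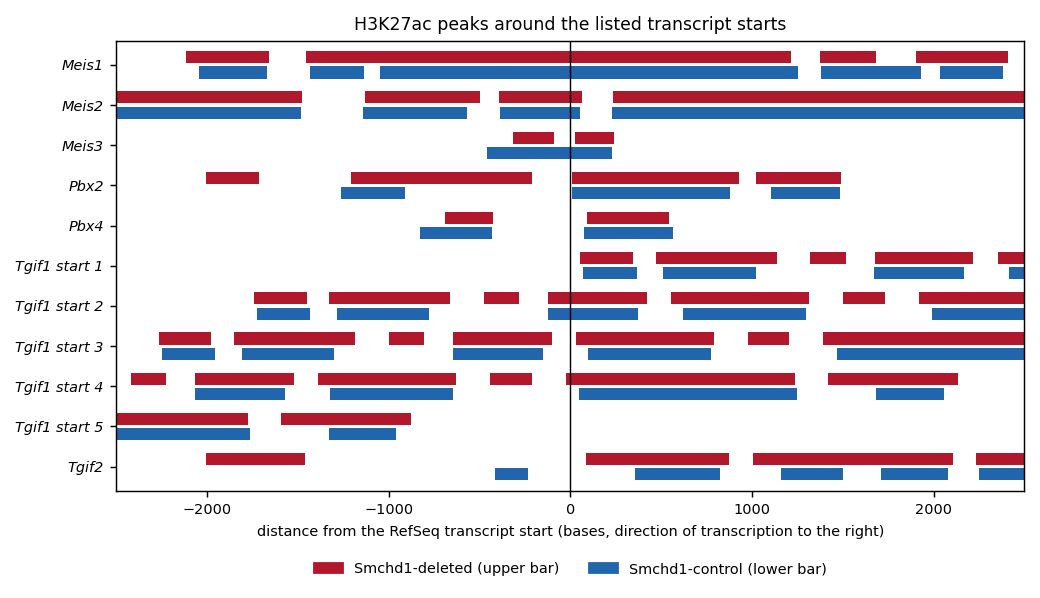
H3K27ac peaks within 2500 bases of the 11 listed starts, drawn by distance in bases from the start in the direction of transcription, deleted as the upper bar and control as the lower bar. The 5 Tgif1 starts are numbered along the direction of transcription, and the peaks leave a space at the start of Pbx4 in both lists.

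Of the shared peaks, 53 pairs matched 1 to 1. In 35 of the 53 pairs (66.0%) the deleted peak was the wider, against 67.6% of 35969 pairs over the whole lists. Its enrichment was the higher in 30 (56.6%), against 51.1% over the whole lists, and the libraries are not scaled to each other. The summits lay a median of 57 bases apart at these genes and 66 bases apart in the whole lists. By gene, the deleted peak had the higher enrichment in 11 of 13 pairs at Pbx2, most of them outside its body, and in 1 of 5 at Pbx4. It was the higher in 2 of 4 at Meis1, 6 of 12 at Meis2 and 0 of 1 at Meis3. At Pbx3 this held for 1 of 2, at Tgif1 for 5 of 8 and at Tgif2 for 4 of 8.

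**Figure D4:**
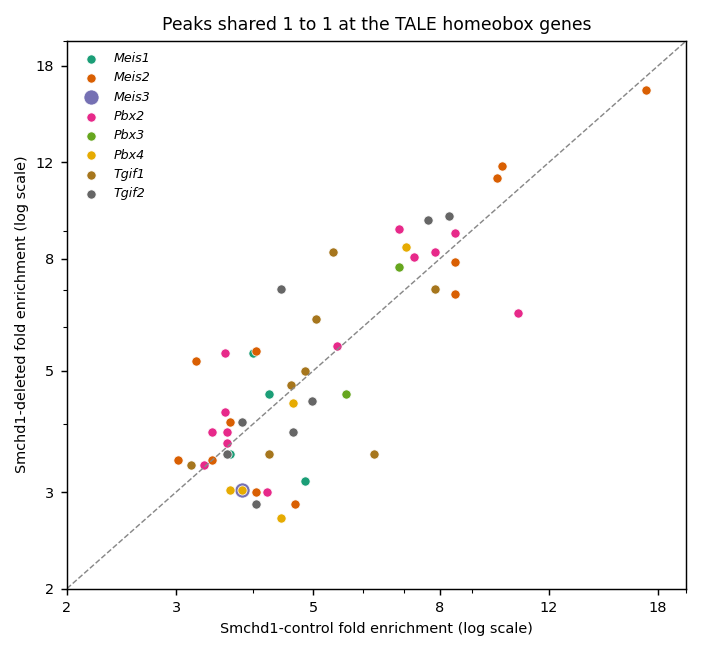
Fold enrichment of the 53 peak pairs shared 1 to 1, Smchd1-deleted on the vertical and Smchd1-control on the horizontal axis, both on log scales, with each point a pair and the dashed line equal values. The points lie on both sides of the line, 30 above it, and the larger Meis3 point is partly under a Pbx4 point.

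Other genes of the same superclass and known partners were counted in the same windows. Of 9 other TALE homeobox genes, 3 had peaks in both lists, 1 in the deleted list alone and 5 in neither. Of all protein-coding windows, 68.5% had peaks in both lists. Pknox2, a Meis-related gene, led them with 40 peaks in deleted cells and 19 in control cells. Its highest enrichment was 13.3-fold in deleted cells and 12.3-fold in control cells. Of its 40 deleted peaks 27 were list-only, against 50.6% of all deleted peaks. Of its 19 control peaks 5 were, against 24.3% of all control peaks. Of the Iroquois genes only Irx5 had peaks in both lists, and Irx3 had 2 in deleted cells and 0 in control cells.

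All 10 genes for repressor and Smad partners of Tgif proteins had peaks in both lists, and 9 of them within 1 kb of a gene end. The most enriched was Ctbp2, a corepressor, at 12.9-fold in deleted cells, and Sin3a, a histone deacetylase scaffold, at 12.3-fold in control cells. Within 1 kb of a gene end, Sin3a reached 7.22-fold in deleted cells and 5.45-fold in control cells. Ctbp2 reached 12.9-fold and 10.7-fold there, in the same order. Of 8 forebrain partners or targets of Meis and Pbx proteins, 3 had peaks in both lists, below that 68.5%. A further 1 had peaks in the deleted list alone and 4 in neither. Pax6, a neural stem cell transcription factor, was the highest at 16.0-fold in deleted cells. It shared the highest control value, 13.7-fold, with Sox11, which was 12.8-fold in deleted cells. The Pax6 peaks were not within 1 kb of an end of Pax6 in either list, whereas those values of Sox11 were at its ends. The neuronal genes Dlx1, Dlx2, Dlx5 and Dcx had no peak in either list.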

How the data were processed

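H3K27ac ChIP-seq peak lists of 1 Smchd1-deleted and 1 Smchd1-control library were analysed, and 2 input libraries entered through the peak calls alone. Per the submitters' processing notes, bcl2fastq and Bowtie 0.12.9 were used with the mm10 build. Per the file headers, the authors ran MACS2 2.1.0.20140616 with narrow calling on each ChIP and its matching input, with a q-value cutoff of 0.05 and 1 tag kept per position. Tags had 80 bases, per the file headers, fragments were modelled at 171 bases in deleted and 175 in control cells, and the inputs kept 77101643 tags in deleted and 80601280 in control cells.

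The deposited columns are the pileup signal at the summit, the −log10 p-value and −log10 q-value of each peak and its fold enrichment over local background, computed by the authors with MACS2. Fold enrichment is a ratio within 1 pair of ChIP and input and was used to describe, rank or filter peaks.

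Peaks on chromosomes 1 to 19 and X were joined with the RefSeq gene table of GRCm38.p6, and listed starts and promoter sequences came from RefSeq on the same build, with 7 of 8 genes matched. Local background was recovered as (pileup + 1) / fold − 1. Intervals are exact (Clopper-Pearson, 95%). With 1 library per group no p-value between conditions is given. Planted overlaps on simulated lists were recovered exactly. Python 3.11.15, pandas 2.3.3, numpy 2.4.6, scipy 1.17.1 and matplotlib 3.10.9 were used.

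The genes and lists were chosen with earlier results of these data known. All 8 genes were named, with the most enriched peak and the most enriched list-only peak of each list, gene ends within 1 kb of those peaks, the most enriched genes of related lists, and the 3 genes most like the one with most deleted peaks. Chosen after their values were seen were the other single peaks and start positions described, the 1 kb runs, and the Pknox2, Irx3, Irx5, Dlx and Dcx values. So were the alternatives given for single genes and the numbers of pairs by gene. Alternatives were window size, peak thresholds, lists of equal length, the overlap that counts as shared, peaks of neighbours, leaving out Meis2, and joining.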

Additional observations from a re-analysis of the deposited data

How the results depend on the processing

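With both lists kept at 5-fold or more, the list-only share of deleted peaks at these genes was 22.6%, against 41.1% in the full lists, and that of all deleted peaks was 26.9%, against 50.6%. For control peaks this threshold gave 10.3% at these genes and 19.04% over the whole list. All 7 such peaks overlap a control peak below that threshold, since no peak of at least 5-fold at these genes was list-only in the full lists. Over the other alternatives this share was 32.6 to 48.2%. Over all alternatives the list-only share of control peaks was 10.3 to 24.7%. The ratio of peak numbers was 1.01, with lists of equal length, to 1.45, without Meis2. At equal lengths the whole lists have a ratio of 1.00 by construction. The genes with peaks in both lists numbered 8 under the other window sizes, the q threshold, equal lengths, joining and without peaks of neighbours, and 7 at 5-fold, which left Meis3 with no peak. This number was not computed for the overlap rules or without Meis2. Equal lengths gave 86 deleted and 85 control peaks, and Meis2 then had 18 in deleted and 25 in control cells, a ratio of 0.720.

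With lists of equal length, the list-only shares were 32.6% of deleted and 24.7% of control peaks at these genes, against 38.3% of deleted and 32.6% of control peaks over the whole lists. No paired analysis was possible because each group has 1 library. Leaving out a replicate was likewise not possible. Depth limits weak peaks: a peak listed in 1 library may be under the threshold, not absent, in the other.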
